A study of Mus musculus with 3 samples.

Results

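The T-bet group comprised 9 genes listed by symbol, chosen with earlier results of these data known, which encode the transcription factor T-bet, its relative and partners, and the receptor chains for interleukin 12 (IL-12) and interleukin 18 (IL-18). All 9 were found among 23337 gene symbols, each in a single row. The cells were CD4+ T cells, called Th1 in the labels, and the mice were C57/Bl6j, Wild-type and 7 weeks old. The lymphoid group held 2 libraries, titled as spleen, although their tissue label lists lymph nodes and draining lymph nodes beside the spleen. A single library stood for the tumour group, from mice with B16-F10, a melanoma line that grows after transplantation into this strain. The labels name no treatment, do not say how Th1 cells were picked out among CD4+ T cells, and do not tell whether libraries came from separate or pooled animals, so p-values measure only the spread between these libraries, which could be technical. The unit was inferred to be FPKM, a fragment count corrected for transcript length and sequencing depth. Levels are given as scaled FPKM, divided by median-of-ratios size factors of 1.29 and 1.33 for the lymphoid libraries and 0.58 for the tumour library.

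T-bet, encoded by Tbx21, is the T-box factor that directs CD4+ T cells to the Th1 fate, in which interferon gamma is the main cytokine. IL-12 binds a receptor of the chains Il12rb1 and Il12rb2 and acts through STAT4, while IL-18 binds Il18r1 and signals once the accessory chain Il18rap joins. T-bet works together with Runx3 and Hlx, and it raises the receptor chains that make Th1 cells responsive to IL-12 and IL-18.

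Depth differed between the groups. From the smallest steps between low values, about 11450000 and 15420000 fragments were estimated for the lymphoid libraries and 3270000 for the tumour library. All tested genes are those with a mean of at least 1 FPKM, 9800 in number. Their median log2 change from lymphoid to tumour cells was -0.01 after scaling, -0.96 as deposited and 0.65 with library totals, so that direction is meant relative to the typical gene throughout. Library totals were set mostly by rows of small RNA. These made up 77.7% and 80.1% of the summed values in the lymphoid libraries and 64.0% in the tumour library. T cell identity was shared by the groups: the 13 pan T cell genes summed to 943 and 950 scaled FPKM in the lymphoid libraries and to 931 in the tumour library, with 0 of 13 called (0 also at an unadjusted limma p under 0.05).

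No tested gene of the T-bet group was called changed. Of the 9 genes, 7 were tested, since Eomes and Hlx lay under the filter, and limma with Benjamini-Hochberg adjustment over all tested genes called 0 of 7 at an adjusted p under 0.05. Over all tested genes it called 21.9%, with 12.7% higher and 9.17% lower. At an unadjusted p under 0.05 there were 3 of 7, namely Il18r1, Tbx21 and Il12rb1. With the estimated counting error of the tumour library added to the spread, 0 of 7 were called and 1 of 7, Il18r1, was under an unadjusted 0.05. That fit called 3.82% of all genes, with 3.59% higher and 0.229% lower. The median log2 change of the 7 was 0.21, and all 7 changes were smaller than a doubling or halving. The fit has 1 residual degree of freedom, from the lymphoid libraries, and takes the lone tumour library to vary as they do. The smallest change it called in any gene was 0.55 on the log2 scale.

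**Figure D1:**
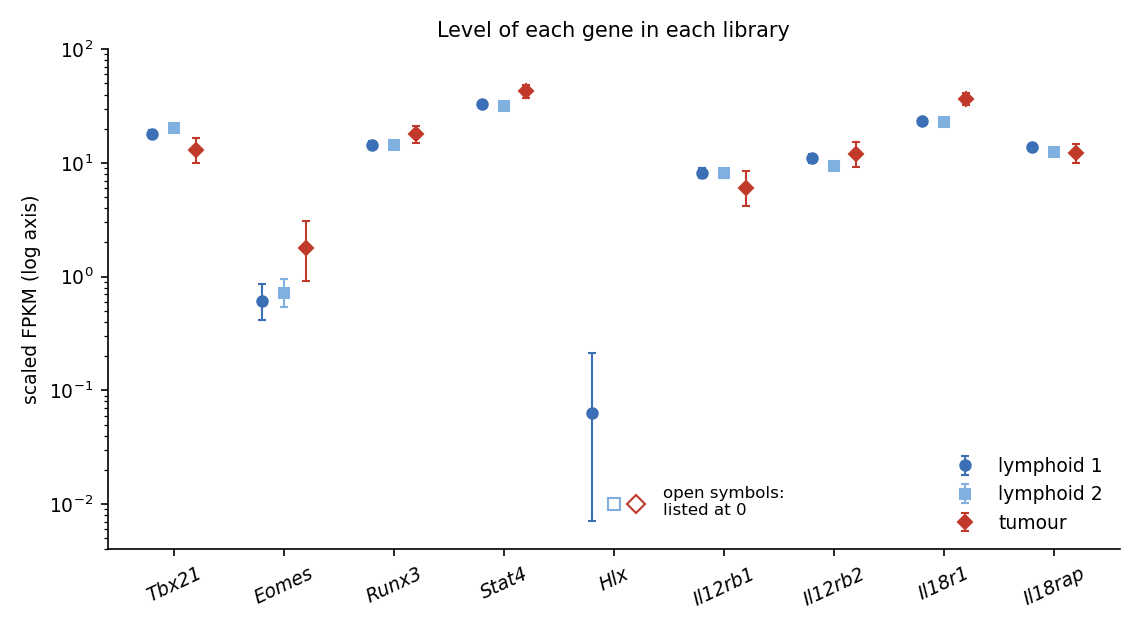
Scaled FPKM (log axis) of the 9 genes in lymphoid library 1 (circles), lymphoid library 2 (squares) and the tumour library (diamonds), with 95% Poisson intervals on estimated fragments. Stat4 and Il18r1 were the most abundant in all 3 libraries, and Hlx was listed at 0 in 2 of them.

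Tbx21 (ENSMUSG00000001444.2, chromosome 11, 97098071 to 97115331, minus strand, GRCm38) was at 18.0 and 20.2 scaled FPKM in lymphoid cells and at 12.9 in tumour cells. The tumour value lay below both lymphoid ones, on about 61 fragments. The log2 change was -0.53 with SE 0.17 (limma adjusted p = 0.0879, and 0.374 with counting error added), and the difference was therefore not resolved from the spread. Values below both lymphoid libraries were common, at 42.6% of all tested genes, and values above both made up 41.3%; of the 9 genes, 3 lay below both and 5 above both. With library totals the sign turned (0.21, limma adjusted p = 0.602).

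Eomes (ENSMUSG00000032446.14, chromosome 9, 118478212 to 118486132), which encodes the other T-box factor of effector lymphocytes and is better known from CD8 T and NK cells, was near the lower end of the values. It stood at 0.609 and 0.724 scaled FPKM in the lymphoid libraries and at 1.78 in the tumour library, on about 32, 53 and 12 fragments. The tumour value was over 2-fold above each lymphoid one, a size reached by 8.76% of tested genes but by 39.2% of the 3095 genes with a mean of 0.5 to 2 FPKM, to which Eomes belongs. The mean of 1440 odorant and vomeronasal receptor genes, which T cells are not known to use, was 0.0583 and 0.1005 in the lymphoid libraries and 0.662 in the tumour library. Their medians were 0, 0.0284 and 0, and 15.6%, 59.7% and 41.9% were above 0. Those at or above Eomes made up 0.625%, 0.556% and 3.33%. Without the filter limma called Eomes higher (log2 change 0.74, adjusted p = 0.0353), in a fit that called 35.1% of all genes higher. Of the 2 CD8 markers, summed at 0.558 and 0.814 against 5.27, Cd8b1 was at 0.494 and 0.783 against 4.77, on about 13 tumour fragments. It was called higher by limma (adjusted p = 0.00255), but not with counting error added (adjusted p = 0.0742), and it passed the filter only through its tumour value. Cd8a rested on about 3 fragments or fewer in each library and was not tested. The 8 NK cell markers summed to 26.5 and 23.9 against 22.1, mostly through Klrb1c, which encodes NK1.1 (23.6 and 20.1 against 13.4, not called). Among the others, Ncr1, Klra8 and Gzma were at 0 in lymphoid library 1 and between 0.993 and 1.93 in the tumour library. These tumour values rested on about 4, 2 and 4 fragments, and lymphoid library 2 held 0.169, 0 and 0.120. Klre1, also tested, was at 2.01 and 2.64 against 2.46 and was not called. Klra9 (0.506 and 0.550 against 1.38) and Khdc1a (0.321 and 0.285 against 0.408) were not tested. Klra4 was at 0 in all 3. The part of other cells and of this background in the Eomes value was not tested.

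Runx3 (ENSMUSG00000070691.10, chromosome 4, 135120652 to 135177990), a runt-domain factor that binds the Ifng locus with T-bet and silences Cd4 in CD8 T cells, was close between the lymphoid libraries. Its level was 14.5 and 14.3 scaled FPKM there and 17.8 in tumour cells, above both. The log2 change of 0.29 (SE 0.16, limma adjusted p = 0.253) was not called. Stat4 (ENSMUSG00000062939.11, chromosome 1, 51987148 to 52107189), the signal transducer of the IL-12 receptor, was the most abundant of the 9 genes in each library. It was at 33.0 and 31.5 in lymphoid cells and 42.8 in tumour cells, a log2 change of 0.40 (SE 0.18, limma adjusted p = 0.169). Both genes were lower as deposited (-0.81 and -0.75), where the median gene was lower by more. Hlx (ENSMUSG00000039377.7, chromosome 1, 184727140 to 184732619), a homeobox partner of T-bet, was barely measured. It was at 0.0633 in lymphoid library 1, on about 2 fragments, and listed at 0 in the other lymphoid library and in the tumour library. A level of 3 fragments would be 0.0640 and 0.695 in these libraries, so a difference was not detectable at this depth.

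Of the 4 receptor chains, 3 are shown with the bases before their starts, since the results that follow turn on the ratio of the chains within a pair. Il12rb1 had no entry. The 250 bases before the RefSeq start are printed for Il18r1 (chr1:40465302-40465551, plus strand), Il18rap (chr1:40515112-40515361, plus strand) and Il12rb2 (chr6:67376189-67376438, minus strand), all GRCm38.p6, 5′ to 3′. Capitals mark matches to the T-box core TCACAC or the STAT pattern TTCNNNGAA, on either strand. Il18r1 has other RefSeq starts, and the first is shown.
Il18r1: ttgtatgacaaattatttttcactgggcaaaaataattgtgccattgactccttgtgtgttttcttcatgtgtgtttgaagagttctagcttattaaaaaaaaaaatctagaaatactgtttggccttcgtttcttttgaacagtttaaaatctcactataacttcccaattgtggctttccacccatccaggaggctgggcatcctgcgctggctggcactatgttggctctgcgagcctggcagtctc
Il18rap: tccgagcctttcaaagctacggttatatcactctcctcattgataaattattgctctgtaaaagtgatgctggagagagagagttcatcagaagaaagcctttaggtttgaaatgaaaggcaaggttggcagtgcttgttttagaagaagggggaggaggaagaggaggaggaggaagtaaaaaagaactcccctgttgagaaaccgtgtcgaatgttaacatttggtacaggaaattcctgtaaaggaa
Il12rb2: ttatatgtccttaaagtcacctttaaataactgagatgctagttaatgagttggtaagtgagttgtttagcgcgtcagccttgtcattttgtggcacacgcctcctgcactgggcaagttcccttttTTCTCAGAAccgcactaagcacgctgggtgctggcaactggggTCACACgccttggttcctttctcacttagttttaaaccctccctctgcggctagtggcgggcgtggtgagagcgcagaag
In Il12rb2 the STAT match began 123 and the T-box match 80 bases before the start, while the windows shown for Il18r1 and Il18rap held neither pattern. Of 32851 RefSeq windows of this length, 12.3% held the T-box core and 7.02% the STAT pattern. Over the 12 windows of the 8 genes with an entry, 1 held the T-box core and 2 the STAT pattern, the other being a later start of Il18r1. The RUNX core TGTGGT was in 1 of the 12, at an upstream start of Runx3, and in 14.0% of all windows. These are matches of letters and do not show binding.

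The genes of the IL-18 receptor chains lie side by side on chromosome 1, and neither was called changed in the tumour library. Il18r1 (ENSMUSG00000026070.15, 40465552 to 40500854), the ligand-binding chain, was at 23.3 and 22.9 scaled FPKM in lymphoid cells and at 36.7 in tumour cells, above both. The log2 change of 0.65 (SE 0.17) was the highest of the 7 and lay at the edge of the threshold (limma adjusted p = 0.0503, and 0.189 with counting error added). A pseudocount of 5, no filter or no mean-variance trend put it just past the threshold (limma adjusted p = 0.0471, 0.0481 and 0.0398), in fits that called 13.5%, 35.1% and 12.1% of all genes higher. Il18rap (ENSMUSG00000026068.11, 40515362 to 40551705), the accessory chain needed for signalling, was at 13.9 and 12.6 in the lymphoid libraries and 12.3 in the tumour library, a log2 change of -0.10 (SE 0.17, limma adjusted p = 0.697).

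The ratio of 2 genes within a library does not depend on the scaling between libraries. Il18rap stood to Il18r1 at 0.595 and 0.551 in the lymphoid libraries (0.573 ± 0.0311, SD, n = 2) and at 0.334 in the tumour library. The 95% Clopper-Pearson interval from estimated fragments was 0.265 to 0.415 in the tumour library, against 0.549 to 0.646 and 0.513 to 0.592, and did not overlap either. Such intervals cover counting error only, and with 1 tumour library the ratio has no test. The lymphoid mean was 1.72-fold the tumour ratio, and the spread of such shifts over other pairs of genes was not computed. For single genes, the SD of the log2 change over all tested genes was 0.78, against 0.36 for the log2 difference between the lymphoid libraries. The neighbouring genes of the IL-1 receptor cluster were low, with no value above 1.37 scaled FPKM. Il1r2 (0.105 and 0.0371 against 0.807), Il1r1 (0.195 and 0.157 against 0.543) and Il1rl1, which encodes the IL-33 receptor (0.307 and 0.269 against 1.28), had tumour values above both lymphoid ones. These were under the filter and rested on about 2, 6 and 13 tumour fragments. Il1rl2 was at 1.37 and 1.24 against 1.36.

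The IL-12 receptor chains were lower in level than the IL-18 receptor binding chain in each library. Il12rb1 (ENSMUSG00000000791.9, chromosome 8, 70808449 to 70821424), which is shared with the IL-23 receptor, was at 8.15 and 8.11 scaled FPKM in lymphoid cells and 5.99 in tumour cells. The tumour value lay below both, on about 33 fragments, with a log2 change of -0.38 (SE 0.15, limma adjusted p = 0.129). Il12rb2 (ENSMUSG00000018341.12, chromosome 6, 67291318 to 67376188), the signalling chain that marks Th1 cells, was at 11.0 and 9.45 in the lymphoid libraries and 12.0 in the tumour library. The change of 0.21 on the log2 scale (SE 0.17) was not called (limma adjusted p = 0.419). Its 3′ end overlaps a transcript of Serbp1 on the other strand. Likewise Gm33460 overlaps Eomes, Gm16224 overlaps Runx3, and Gm3940 and, on the same strand, Gm28177 overlap Stat4. Reads of genes on opposite strands cannot be told apart unless counting used strand, which the sources used here do not say, and strand does not separate Stat4 from Gm28177. The ratio of Il12rb2 to Il12rb1 was 1.36 and 1.17 in the lymphoid libraries and 2.01 in the tumour library. The tumour interval of 1.28 to 3.09 overlapped that of lymphoid library 1 (1.18 to 1.56) and that of lymphoid library 2 (1.03 to 1.32), while the value itself lay above both of these intervals. With 1 tumour library this ratio has no test.

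**Figure D2:**
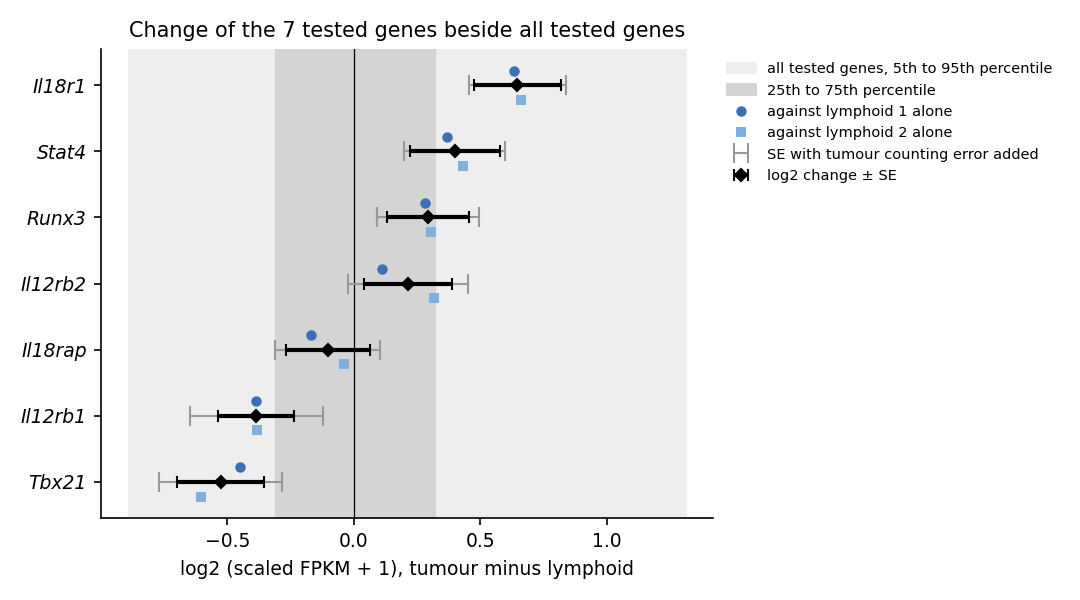
Log2 change of scaled FPKM plus 1 of the 7 tested genes, tumour minus lymphoid, with SE without and with tumour counting error, and against each lymphoid library alone. Grey bands span the 25th to 75th and the 5th to 95th percentile of all 9800 tested genes. All 7 genes lay within the wider band, from -0.53 for Tbx21 to 0.65 for Il18r1.

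The order of levels was the same in both lymphoid libraries: Stat4, Il18r1, Tbx21, Runx3, Il18rap, Il12rb2, Il12rb1, Eomes and Hlx, and the values of neighbours in the 2 libraries did not overlap. Within a library some Poisson intervals of neighbours did, such as those of Runx3 and Il18rap in lymphoid library 1 (13.5 to 15.5 and 13.1 to 14.8) and of Il12rb2 and Il12rb1 in lymphoid library 2 (8.70 to 10.3 and 7.40 to 8.86). In the tumour library Runx3 stood above Tbx21 and the rest of the order was kept. There Tbx21 (12.9, with a Poisson interval of 9.90 to 16.6), Il18rap (12.3, 10.1 to 14.7) and Il12rb2 (12.0, 9.30 to 15.2) had overlapping intervals. Runx3 stood to Tbx21 at 0.805 and 0.707 in lymphoid cells and at 1.38 in tumour cells (interval 1.01 to 1.90). Il18r1 stood to Tbx21 at 1.30 and 1.13 in lymphoid cells and at 2.84 in tumour cells, where the interval was 2.14 to 3.80. This last pair holds the highest and the lowest change of the 7, and the ratios of Runx3 and Il18r1 to Tbx21 were picked after values had been seen. Other ratios outside the plan were also computed. They were Stat4 to Tbx21 (1.83 and 1.56 against 3.31), Il18r1 to Il12rb1 (2.86 and 2.82 against 6.13) and Il12rb2 to Il18r1 (0.473 and 0.413 against 0.327).

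Further ratios set the factors against those of other lineages and against relatives. Tbx21 stood to Gata3, the Th2 factor, at 0.944 and 1.13 in lymphoid and 0.964 in tumour cells, so the tumour ratio lay between the lymphoid ones. Tbx21 to Foxp3, the regulatory T cell factor, was 1.59 and 2.26 against 2.54, with a tumour interval of 1.66 to 3.93 that overlapped both. Tbx21 to the T cell receptor chain gene Cd3e was 0.143 and 0.190 against 0.116, and the tumour interval of 0.0869 to 0.154 overlapped that of lymphoid library 1. Runx3 to its relative Runx1 was 1.45 and 1.60 against 1.96, with an interval of 1.50 to 2.56 that overlapped both. Tbx21 to Eomes was 29.6 and 27.9 against 7.27 (interval 3.88 to 14.8), with the limits on Eomes given above.

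**Figure D3:**
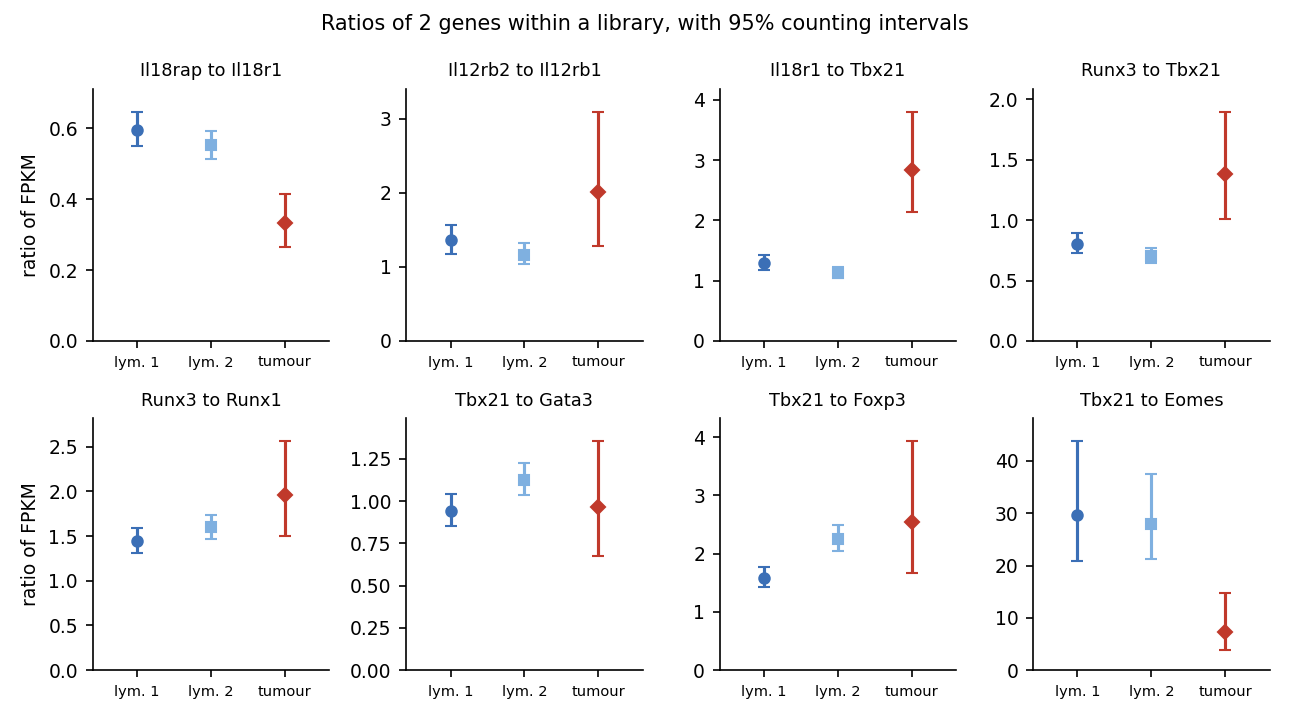
Ratio of the FPKM of 2 genes within each library, for lymphoid library 1 (circles), lymphoid library 2 (squares) and the tumour library (diamonds), with 95% Clopper-Pearson intervals on estimated fragments. The tumour interval lies outside both lymphoid ones for Il18rap to Il18r1, Il18r1 to Tbx21, Runx3 to Tbx21 and Tbx21 to Eomes, and overlaps at least 1 for Il12rb2 to Il12rb1, Runx3 to Runx1, Tbx21 to Gata3 and Tbx21 to Foxp3. The intervals cover counting error only, and how often those of other gene pairs lie apart was not computed. Il18r1 to Tbx21 and Runx3 to Tbx21 were picked after values had been seen, and Eomes rested on about 12 tumour fragments.

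By the likeness rule, the genes nearest to Tbx21 in centred log2 values over the 3 libraries were Hdac1 (a largest difference of 0.0028), Kdm4a (0.0052) and P4hb (0.0060). Hdac1 was at 23.9 and 26.8 scaled FPKM in the lymphoid libraries and 17.2 in the tumour library. Of 2423 genes of a level within 2-fold of Tbx21, 99 lay within 0.1 of it, so that 3 libraries single out few patterns.

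Of 18 genes of IL-12 family ligands, receptors and kinases, 13 were tested, 3 were higher and 0 lower by limma, against 12.7% and 9.17% of all genes, with a median log2 change of 0.07. Socs3, an inhibitor of JAK-STAT signalling, rose from 8.73 and 9.11 to 27.2 (log2 change 1.51, limma adjusted p = 0.00324), and this call was left with counting error added (adjusted p = 0.0205). Cish, another inhibitor of that family, rose from 6.01 and 6.25 to 12.0 (0.86, limma adjusted p = 0.0161), and Stat3, named after its values were seen, from 18.7 and 19.3 to 31.5. The calls of Cish and Stat3 ended with counting error added (limma adjusted p = 0.145 and 0.149), and Cish was lower as deposited (-0.19). The kinases of the IL-12 receptor, Jak2 (27.8 and 27.7 against 29.9) and Tyk2 (8.49 and 8.69 against 8.14), were not called, nor were the inhibitor genes Socs1 (8.16 and 7.81 against 10.8), Ptpn2 (17.6 and 22.3 against 18.7) and Ptpn6 (32.2 and 43.6 against 30.7). The ligand genes Il12a, Il12b, Il23a and Il27, products of antigen-presenting cells, were no higher than 0.428 in any library. Ebi3, another ligand gene of the list, was at 1.09 and 0.909 against 1.41, on about 3 tumour fragments. It was not called (limma adjusted p = 0.302).

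Below the IL-18 receptor 1 signalling gene was called. Of 26 genes of the IL-18 and IL-1 receptor family, 22 were tested, 0 were higher and 1 was lower, against 12.7% and 9.17% of all genes. The median was -0.03 (5 of 22 were under an unadjusted limma p of 0.05). Irak4, a kinase recruited by Myd88, fell from 4.35 and 4.81 to 2.40 (log2 change -0.71, limma adjusted p = 0.0266), on about 13 tumour fragments and not with counting error added (adjusted p = 0.361). The adaptor Myd88 was at 9.05 and 10.1 against 10.3. Il18bp, the secreted decoy of IL-18, was at 1.95 and 2.09 against 2.31.

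**Figure D4:**
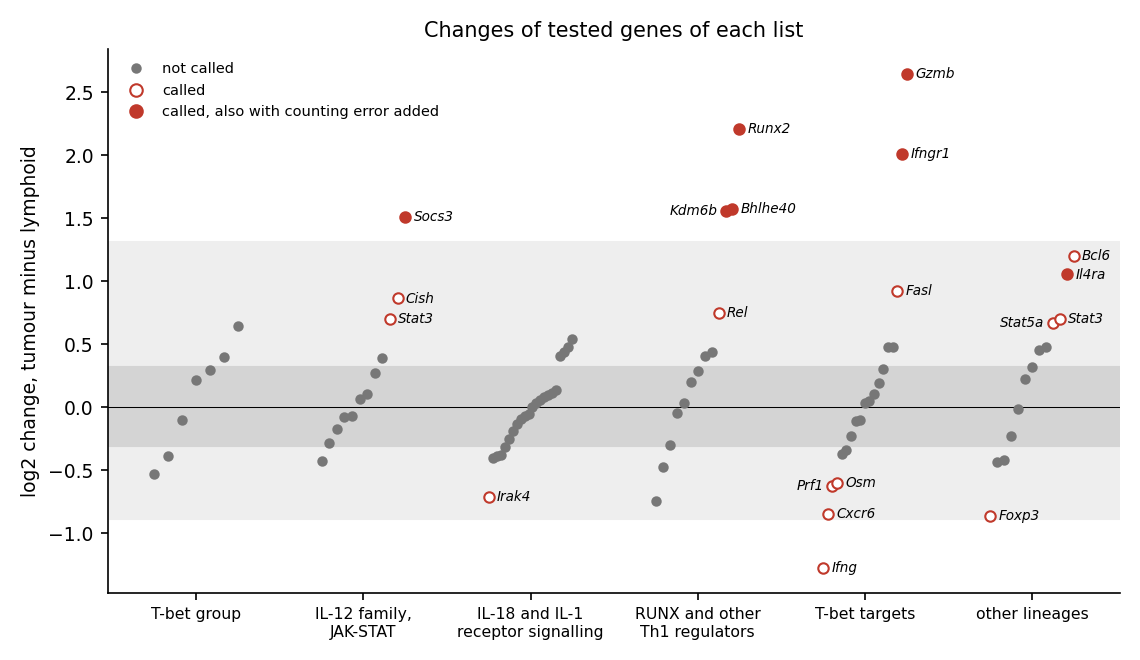
Log2 change of tested genes of the T-bet group and of the 5 pathway lists, with genes called by limma in red (filled where also called with counting error added) and the grey bands of all tested genes. The T-bet group holds 0 called genes, while Gzmb, Runx2, Ifngr1, Bhlhe40, Kdm6b and Socs3 lie above the wider band.

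Of 16 other genes listed as RUNX family members or regulators associated with Th1 cells, 13 were tested, 4 were higher and 0 lower, with a median of 0.29, against 12.7% higher and 9.17% lower over all genes. Runx2, the relative of Runx3 best known from bone, rose from 2.28 and 1.47 to 12.2 (log2 change 2.21, limma adjusted p = 0.00219, and 0.0108 with counting error added). Bhlhe40, which sustains cytokine production in T helper cells, rose from 9.45 and 9.56 to 30.2. Kdm6b and Rel were also higher, both named after their values were seen, and Rel was not called with counting error added (limma adjusted p = 0.168). Cbfb, the shared partner subunit of the RUNX factors, was at 16.3 and 16.4 against 13.1 and Runx1 at 10.02 and 8.93 against 9.11, and neither was called. Twist1, a gene raised through T-bet and STAT4, was at 0.0424, 0 and 0.

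Genes described as targets of T-bet went both ways. Of 24 listed, 19 were tested, 3 were higher and 4 lower, against 12.7% and 9.17% of all genes. The median was 0.03, and the list was drawn up with earlier results known. Gzmb (granzyme B) and Ifngr1 (an interferon gamma receptor chain) rose by 2.64 and 2.01, and these 2 calls were left with counting error added. Ifng and Cxcr6 were lower (log2 changes of -1.28 and -0.85), and adding counting error ended both calls (limma adjusted p = 0.209 and 0.148). The other calls, Fasl higher and Prf1 and Osm lower, also ended with counting error added. Cxcr3, the chemokine receptor most used to mark Th1 cells, was at 56.0 and 49.1 against 44.6, Il2rb at 86.9 and 75.2 against 75.4 and Ccl5 at 119.5 and 117.7 against 109.7. None of these 3 was called (limma adjusted p = 0.442, 0.764 and 0.722).

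Regulators of other T helper lineages had 4 higher and 1 lower calls among 14 tested, with a median of 0.27. Over all genes 12.7% were called higher and 9.17% lower. Bcl6, the factor of follicular helper cells, rose by 1.20 and Il4ra, the IL-4 receptor chain, by 1.05, of which Il4ra was left with counting error added (limma adjusted p = 0.0472) and was lower by -0.06 as deposited. Foxp3 was lower (-0.86), a call lost with counting error added (limma adjusted p = 0.217). Gata3 (19.1 and 17.9 against 13.4) was not called.

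Besides Cd8b1, 3 markers of other cells were called higher by limma, namely Cd22, Itgam and Cxcr2 (adjusted p = 0.00288, 0.00578 and 0.00244), and Cd22 alone was left with counting error added (adjusted p = 0.0391, against 0.0554 and 0.0509). Each of them, like Cd8b1, was the only tested gene of its marker list. Cxcr2 (0.506 and 0.590 FPKM before scaling, against 1.997) and Cd8b1 (0.639 and 1.045 against 2.763) passed the filter only through the tumour library. For these genes the filter itself favoured a call of higher. Over all genes 12.7% were called higher, and 3.59% with counting error added. The 10 macrophage and monocyte markers present summed to 1.91 and 1.65 in the lymphoid libraries and to 10.7 in the tumour library, of which Itgam made up 3.95. The 6 B cell markers summed to 2.21 and 2.09 against 6.40, with Cd22 at 5.76 and 4 of 6 at 0. The 4 neutrophil markers present summed to 0.503 and 0.526 against 4.06, with S100a8 and S100a9 at 0 in all 3 libraries. The 8 melanocyte markers summed to 1.35 and 1.52 against 3.35, led by Pmel, with Mlana at 0 in all 3. Dendritic cell markers (16.3 and 12.6 against 21.4, mostly Ccr7, which T cells also express) and fibroblast and endothelial markers (9.83 and 9.05 against 10.3, mostly Pecam1) completed the lists. Pecam1 itself was at 9.76 and 8.80 against 7.70 and was not called. Pdgfrb was at 0.0243 and 0.0257 against 1.04, on about 11 tumour fragments. Cdh5 (0 and 0.0234 against 0.777) and Kdr (0 and 0.0425 against 0.565) rested on about 6 each, and 3 of the 8 were at 0 in the tumour library. In bulk RNA, fewer cells that express a gene and less RNA per cell cannot be told apart, and the part of other cells in the T-bet group values was not tested.

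**Figure D5:**
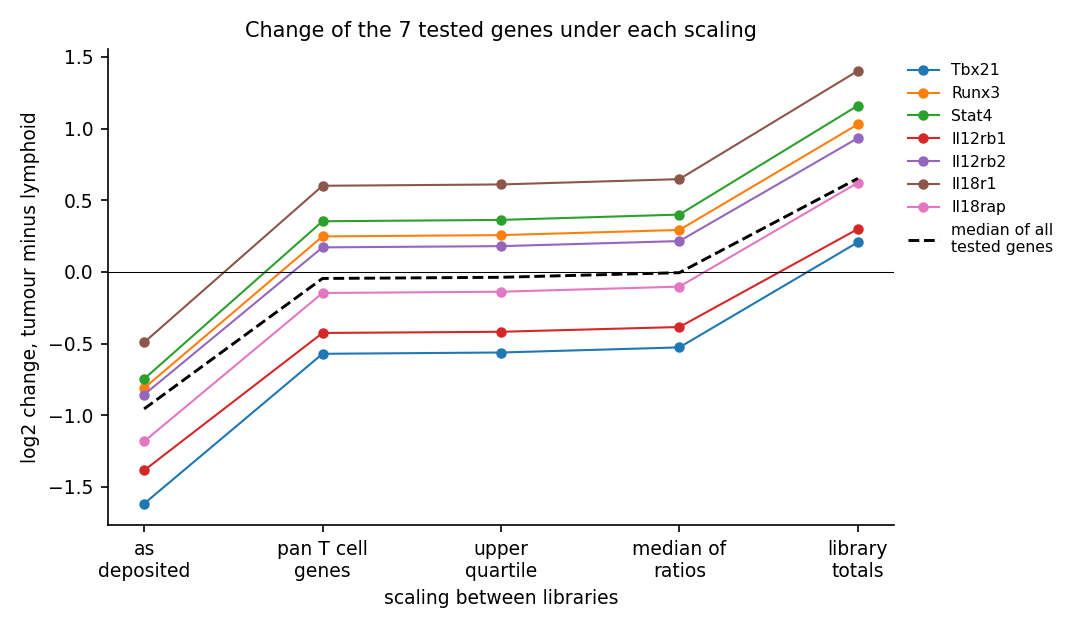
Log2 change of the 7 tested genes under 5 scalings between libraries, with the median of all tested genes (dashed). The lines keep their order from Il18r1 down to Tbx21 while their position against 0 follows the scaling, from 7 genes below 0 as deposited to 7 above 0 with library totals.

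Scaling set the sign of single genes but not their order. As deposited, 7 of 7 genes were called lower by limma, with 77.8% of all genes, and Il18r1 at -0.49 and Stat4 at -0.75 lay above the median gene at -0.96 while Tbx21 at -1.62 lay below it. With library totals 4 of 7 were called higher (Il18r1, Stat4, Runx3 and Il12rb2), with 44.6% of all genes. Under the upper quartile and under the geometric mean of pan T cell genes the changes were within 0.05 of those given above, and 0 of 7 were called. Relative to the pan T cell genes, Tbx21 was at -0.57 (limma adjusted p = 0.0703) and Il18r1 at 0.60 (limma adjusted p = 0.0595).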

How the data were processed

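RNA was measured in 3 libraries. Per the labels' protocols, stranded total RNA libraries depleted of ribosomal RNA were prepared from 300000 CD4+ T cells and read in pairs of 75 bp. Per the submitters' processing notes the build was mm10 and the tools were kallisto and DESeq2, with no version or role given. The deposited values were taken as FPKM, 1 per gene row. The unit was inferred from values that are not whole and from sums that differ between libraries. Which program made them is not given in the sources used here, nor is the annotation or a filter. Where 1 of the 23337 symbols had several rows (252 did), that of highest mean was used. Size factors were medians of ratios over tested genes.

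After scaling, log2(FPKM + 1) of the 9800 genes whose mean reached 1 FPKM was tested with limma 3.58.1 (R 4.3.3, mean-variance trend on) and p-values were adjusted over them by Benjamini-Hochberg. It replaces the count test, since the values are not counts. It was tested on simulated data. There the tumour library varied as the lymphoid ones did, without counting error. The simulation therefore cannot check the assumption that the real tumour library varies as they do. A log2 change is on this scale and understates changes of low genes. Fragments were estimated from FPKM times the length of the longest principal GENCODE M21 transcript, divided by the product most often shared among weakly expressed single-transcript genes (below 2 FPKM, 1000 nt or longer). The fit with counting error adds the tumour Poisson variance to the squared SE, for the 9181 genes with a length. Intervals (scipy 1.17.1) are at 95% on rounded estimates. PCR copies are not independent, so intervals cover counting error only. Promoter windows are from RefSeq (GRCm38.p6). Of the 9 genes 8 had an entry.

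The members and gene lists were chosen with earlier results of these data known. Named genes were all 9 members, for each pathway list the 2 called genes that rose most and the 2 that fell most (else its most abundant gene), and the most abundant gene of each marker list. Further listed genes were named outside this rule, such as Jak2, Tyk2, Myd88, Cbfb and Cxcr3, most of them not called. The listed symbols Kmt2a, Adgre1 and Ly6g were not matched. The values of 1 planned ratio and of 2 listed genes are not reported here. Alternatives were other scalings, filters, pseudocounts, summed rows, no trend, counting error and leaving out each lymphoid library.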

Additional observations from a re-analysis of the deposited data

How the results depend on the processing

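After median-of-ratios scaling 0 of the 7 tested genes were called higher and 0 lower, against 12.7% and 9.17% of all genes. Eomes and Hlx were under the filter and could not be called. The higher count was 4 with library totals, 2 with no filter (Eomes and Il18r1), 1 with a pseudocount of 5 and 1 with no mean-variance trend (Il18r1 in both), and the lower count was 7 as deposited. In the same order, these fits called 44.6%, 35.1%, 13.5% and 12.1% of all genes higher, and 77.8% lower as deposited. The counts of the 9 genes above and below both lymphoid libraries, 5 and 3, became 1 and 7 as deposited and 8 and 0 with library totals. Of all tested genes, 41.3% lay above both and 42.6% below both after median-of-ratios scaling. These shares were not computed as deposited or with library totals. As deposited the sign turned for Runx3 (-0.81), Stat4 (-0.75), Il12rb2 (-0.86) and Il18r1 (-0.49), and with library totals for Tbx21 (0.21), Il12rb1 (0.30) and Il18rap (0.62). These turns come from the scaling itself, which moves all genes together. Of 77 values of the 7 tested genes under alternatives with a test, 60 kept their direction and their side of the threshold. A further 10 passed the threshold in the same direction, and 7 turned. The other filters, counting error, summed rows and no trend leave the log2 change itself as it was. Values under these alternatives could therefore not turn, and summed rows hold the same single row for each gene. Leaving out lymphoid library 1 or 2 leaves 1 library against 1 and no test, and the 14 values kept their sign. No paired analysis was possible because the tumour group has 1 library, whose title carries no number. Depth limits the tumour values: Il12rb1 rested on about 33 and Eomes on about 12 fragments.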
